A study of Mus musculus with 10 samples.

Results

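The genes described here are the opioid and cannabinoid signalling genes measured in single cells of the mouse medial prefrontal cortex. They are 3 peptide precursor genes (Penk, Pdyn and Pnoc), 4 opioid receptor genes (Oprm1, Oprd1, Oprk1 and Oprl1) and the cannabinoid receptor gene Cnr1. They were chosen by symbol in the deposited gene lists, and all 8 were found among the 30406 genes that every library listed. Opioid peptides are cut from larger precursor proteins and released from neurons. Penk gives the enkephalins, Pdyn the dynorphins and Pnoc nociceptin. Their receptors lower the activity of the cell that carries them through inhibitory G proteins: the mu receptor (Oprm1) and the delta receptor (Oprd1) answer to enkephalins, the kappa receptor (Oprk1) to dynorphins, and the nociceptin receptor (Oprl1) to nociceptin. Cnr1 encodes the CB1 receptor, which sits mainly on axon terminals, binds lipids released by the neighbouring neuron and lowers transmitter release. In cortex it is best known from the terminals of cholecystokinin-containing interneurons.

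The mice were males of the inbred strain C57BL/6N, over 2 months old, and the tube test had given each its social rank. Cells from 5 libraries of dominant mice (rank 1) and 5 libraries of subordinate mice (rank 4) were sequenced on the 10x Genomics droplet system. The labels name no transgene, drug or other treatment, and both groups had been through the tube test, with the tissue taken 1 day after its last round. Each library pooled 2 to 3 mice, and all libraries were digested with papain at 37 °C for 60 min, so no value belongs to a single animal. The library is the replicate throughout (n = 5 per rank), named by its rank and its number in the labels.

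After filtering, 45864 of 64937 deposited barcodes were kept, with 1445 to 12592 cells and 3976913 to 21725447 UMIs (unique molecular identifiers, 1 per captured RNA molecule) per library. At most 1.70% of the barcodes of the smaller library were shared between any pair of libraries. Levels are given as CPM, the UMIs of a gene scaled to 1000000 UMIs of all shared genes in the same cells, summed per library, as mean ± SD over libraries with at least 10 such cells. The 8 genes and the pathway genes below were kept out of the clustering and the naming of cells, so their levels were not used to draw the cell types. Every named class had at least 5 of its own markers in at least 10% of its cells, and interneuron types and excitatory subclasses had 3 to 6 of theirs; 1 of the 6 L5/6 NP markers was at 0. Summed markers of excitatory neurons also reached 129 to 659 CPM in astrocytes, against 1379 to 2477 CPM in excitatory neurons. The source of that signal was not tested, and low levels outside neurons are given beside it. In each rank, software version 3.1.0 wrote the files of replicates 1 to 3 and version 4.0.0 wrote the others, and Oprm1 and Oprd1 differed between these sets, as described below. The sequence around each core peptide and the levels in cell classes, interneuron types and excitatory subclasses come first, and the comparison of ranks last.

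Each of the 3 precursors holds a short core peptide, and every stretch that codes for it is shown. The core can be a whole product or only part of a longer one, which these stretches do not mark. Each line has the codons of the core peptide in capitals, with the flanking bases in lower case, 5′ to 3′ on the coding strand of the GENCODE M21 transcripts (GRCm38 build). The name gives the codon at which the core begins.
Penk codon 100: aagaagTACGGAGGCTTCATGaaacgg
Penk codon 107: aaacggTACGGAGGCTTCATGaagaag
Penk codon 136: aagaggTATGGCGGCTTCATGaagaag
Penk codon 187: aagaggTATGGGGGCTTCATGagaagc
Penk codon 211: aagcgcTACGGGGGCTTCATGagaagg
Penk codon 231: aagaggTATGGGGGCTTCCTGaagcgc
Penk codon 262: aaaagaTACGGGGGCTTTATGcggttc
Pdyn codon 166: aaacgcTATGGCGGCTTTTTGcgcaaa
Pdyn codon 202: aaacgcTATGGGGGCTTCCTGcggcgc
Pdyn codon 221: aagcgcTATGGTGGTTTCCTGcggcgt
Pnoc codon 141: aaaaggTTTGGGGGCTTCACCggggcc

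The transcript of Penk holds 804 coding bases and 7 copies of the core, of which 6 end in methionine (the sequence of Met-enkephalin) and 1, at codon 231, in leucine (that of Leu-enkephalin). That of Pdyn holds 744 coding bases and 3 copies, all ending in leucine. That of Pnoc holds 636 coding bases and 1 copy, which begins with phenylalanine in place of tyrosine. The codons just before each core are those of lysine and arginine, the residues at which precursor proteins are cut. Those just after it are mostly the same. After the Penk cores at codons 187 and 262 a single arginine is followed by another residue, and after the Pnoc core neither lysine nor arginine stands. Where the proteins are cut was not tested.

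On the GRCm38 build with the GENCODE M21 annotation, Penk lies on the minus strand at chr4:4133531-4138819, Pdyn on the minus strand at chr2:129686565-129699844 and Pnoc on the minus strand at chr14:65400673-65425472. Among the receptors, Oprm1 lies on the plus strand at chr10:6758506-7038198, Oprd1 on the minus strand at chr4:132110726-132144486, Oprk1 on the plus strand at chr1:5588466-5606131, Oprl1 on the plus strand at chr2:181715016-181720985 and Cnr1 on the plus strand at chr4:33924593-33948831. Penk overlaps the antisense gene A830012C17Rik by 499 bases. Oprm1 overlaps the antisense gene Gm10945 by 3256 bases and Ipcef1 by 152403 bases. All of these overlapping genes lie on the opposite strand. The use of strand in the authors' counting is not given in the sources used here, and the effect of the overlaps on the counts was not tested.

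The first question was which cells carry each gene. The 3 precursors each stood out in a different interneuron type: Penk in Vip cells, Pdyn in Sst cells and Pnoc in Lamp5 cells. Of the receptors, Oprm1, Oprd1 and Cnr1 were higher in inhibitory than in excitatory neurons, Oprk1 was higher in excitatory neurons, and Oprl1 was highest in oligodendrocyte precursors. Each gene was compared in each cell type with the mean of the other types of the same level, with edgeR's quasi-likelihood test and Benjamini-Hochberg adjustment over all genes tested. At the level of cell classes 19 of 88 such comparisons of the 8 genes passed an adjusted p of 0.05, a smaller share than the 36.3% of comparisons called over all genes. Among interneuron types 16 of 35 passed, against 12.9% over all genes, and among excitatory subclasses 21 of 40, against 29.6%. Single pairs of types were compared in the same fits, where 37.1% of the comparisons over all genes passed between classes, 13% between interneuron types and 29.8% between excitatory subclasses. A log2 fold change in the text is the first type named over the second, and its p is edgeR's unless another tool is named.

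**Figure D1:**
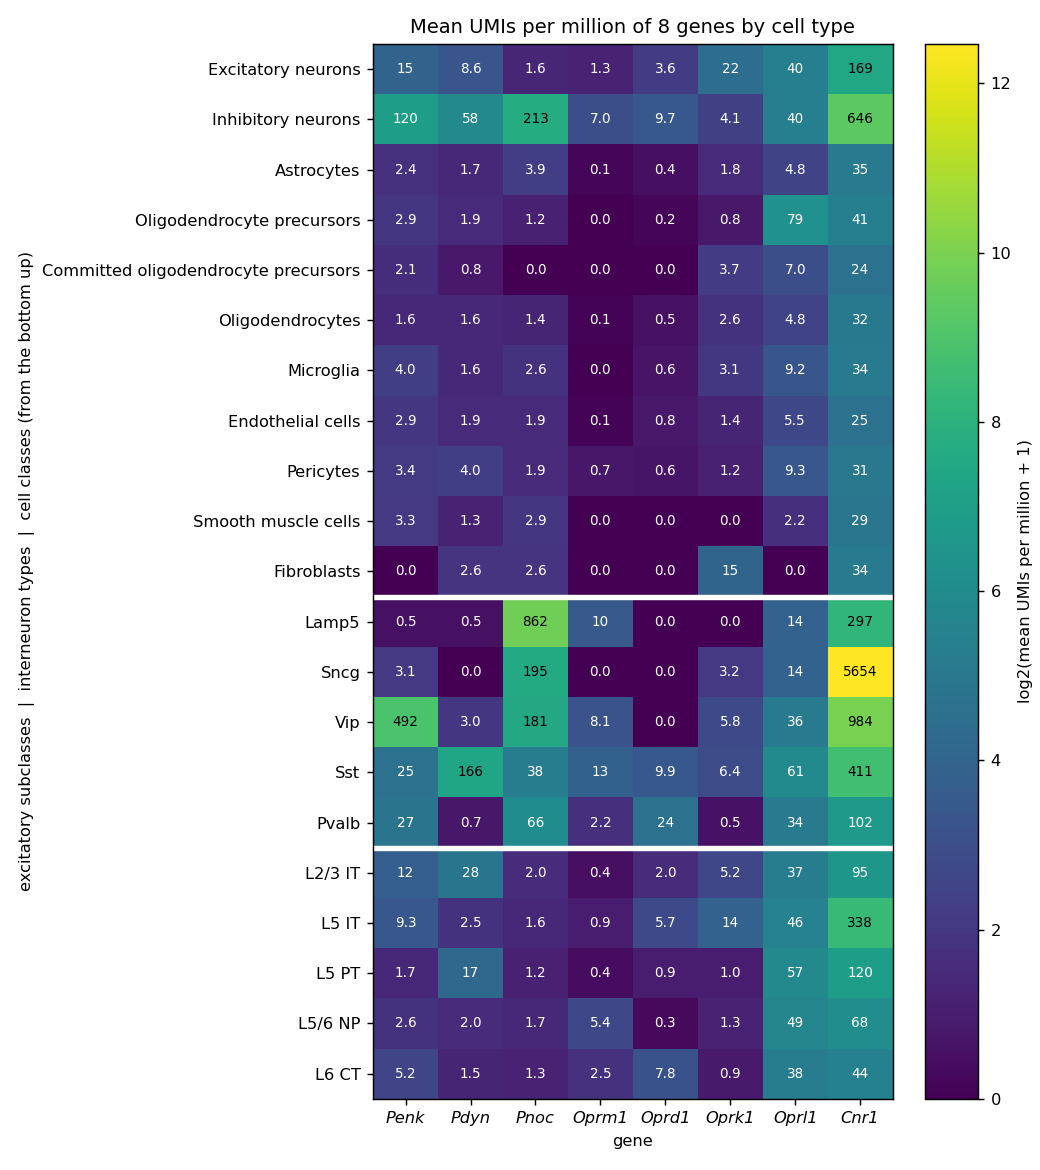
Mean CPM (written in each cell and shown by colour as log2 of the mean plus 1) of the 8 genes (columns) in 11 cell classes, 5 interneuron types and 5 excitatory subclasses (from top to bottom, divided by white lines). Penk peaked in Vip cells (492 CPM), Pdyn in Sst cells (166 CPM), Pnoc in Lamp5 cells (862 CPM) and Cnr1 in Sncg cells (5654 CPM).

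Penk, the enkephalin precursor, was found mainly in neurons, and its level was highest in Vip interneurons, which chiefly contact other interneurons. In inhibitory neurons it ran from 34.5 over a median of 90.3 to 365 CPM (mean 120 ± 92.8, SD, n = 10), and in excitatory neurons from 9.17 over 13.9 to 22.9 CPM (14.5 ± 4.86, n = 10). The lowest inhibitory value lay above the highest excitatory one, and the difference was a log2 fold change of 2.66 (SE 0.20, edgeR adjusted p = 3.2e-21). Excitatory neurons were 32.9% of the cells of a library on average and held 47.8% of its Penk UMIs, and inhibitory neurons were 4.51% of the cells and held 41.9%. Vip cells reached 492 ± 204 CPM (n = 9 libraries, from 126 over 529 to 794), Pvalb cells 27.2 ± 33.9 and Sst cells 24.8 ± 24.7, while Sncg cells held 1 UMI of Penk and Lamp5 cells 2. All 9 Vip values lay above the highest Pvalb value of 94.1, and Vip exceeded Pvalb by 3.93 on the log2 scale (SE 0.20, adjusted p = 5.54e-83). Vip cells were 0.755% of all cells and held 26.9% of the Penk UMIs. With every cell thinned to 1000 UMIs, 22.5% ± 10.4 (n = 9) of Vip cells had a Penk UMI (39.3% unthinned, median 2109 UMIs per cell), against 0.280% of astrocytes (0.519% unthinned, median 1502). Among the excitatory subclasses that could be named the mean was 12.1 CPM in L2/3 IT (intratelencephalic), 9.27 in L5 IT, 5.15 in L6 CT (corticothalamic), 2.60 in L5/6 NP (near-projecting) and 1.69 in L5 PT (pyramidal tract) cells. They held 113, 79, 33, 7 and 12 of the 808 Penk UMIs of excitatory neurons. Most of these UMIs therefore lay in clusters left unnamed, some with higher means, which are described with Oprk1 below. The L6 CT mean includes 31.9 CPM from a single UMI in rank 4 replicate 2, and its median over libraries was 1.86 CPM. The order of L6 CT and L5/6 NP did not hold in the fit (log2 fold change -0.17, adjusted p = 0.937). L2/3 IT passed against the mean of the others (log2 fold change 1.78, SE 0.37, adjusted p = 0.000147). Its difference from L5 IT, the next in order, did not pass (0.85, SE 0.37, adjusted p = 0.0759).

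Pdyn, the dynorphin precursor, was highest in Sst interneurons, which target the dendrites of pyramidal cells. Inhibitory neurons reached 57.8 ± 25.9 CPM (n = 10, from 20.7 to 103) and excitatory neurons 8.65 ± 2.88 (from 4.63 to 12.4), a log2 fold change of 2.53 (SE 0.20, edgeR adjusted p = 6.53e-23) with no overlap between libraries. In Sst cells Pdyn ran from 62.1 over 159 to 288 CPM (166 ± 76.2, n = 9). Vip cells, next in order, had 2.95 ± 4.88 CPM (log2 fold change of Sst over Vip 5.03, SE 0.42, adjusted p = 1e-30), and Pvalb, Lamp5 and Sncg cells together held 5 UMIs. Thinned to 1000 UMIs, 10.2% ± 5.52 of Sst cells had a Pdyn UMI (18.2% unthinned, median 3460 UMIs), against 0.170% of astrocytes (0.285% unthinned). Sst cells were not uniform: the mean was 314 CPM in an Sst cluster of 242 cells, while other Sst clusters of 186 and 103 cells had 4.1 and 10.2 CPM. Pdyn itself took no part in forming these clusters. In excitatory neurons Pdyn was carried by L2/3 IT (27.5 ± 11.6 CPM) and L5 PT cells (17.0 ± 11.7), which differed by 0.59 on the log2 scale (SE 0.19, adjusted p = 0.0111). At clustering resolution 0.5 in place of 1 the L2/3 IT mean was 14.5 CPM. L5 PT exceeded L5 IT cells of the same layer (2.50 ± 1.52 CPM) by 2.87 on the log2 scale (adjusted p = 1.96e-17), and L6 CT cells had 1.49 CPM.

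Pnoc, the nociceptin precursor, was higher than the mean of the others in inhibitory neurons and in none of the other 10 classes tested. Its 213 ± 52.4 CPM in inhibitory neurons (n = 10, from 121 to 305) stood against 3.90 ± 4.52 in astrocytes, the next class (log2 fold change 5.70, SE 0.26, edgeR adjusted p = 4.62e-35). Excitatory neurons had 1.56 ± 1.83 CPM, and none of the 5 excitatory subclasses, at 1.21 to 1.96 CPM, passed against the mean of the others. Lamp5 cells, which include the neurogliaform cells, ran from 467 over 824 to 1406 CPM (862 ± 270, n = 9). The lowest of them lay above the highest value in Sncg cells (248) and in Vip cells (322). Sncg cells had 195 ± 66.7 CPM (n = 5) and Vip cells 181 ± 68.1 (n = 9), a difference that did not pass (log2 fold change 0.15, adjusted p = 0.874). Pvalb cells had 65.8 ± 26.3 and Sst cells 38.2 ± 19.1 CPM. Lamp5 exceeded Sncg by 2.20 on the log2 scale (SE 0.21, adjusted p = 2.62e-24). Within Pvalb, a cluster of 69 cells led by Th, which encodes the enzyme that makes the dopamine precursor, had a mean of 490 CPM. Thinned to 1000 UMIs, 54.0% ± 13.9 of Lamp5 cells had a Pnoc UMI (83.2% unthinned, median 3582 UMIs), against 0.437% of astrocytes (0.860% unthinned).

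**Figure D2:**
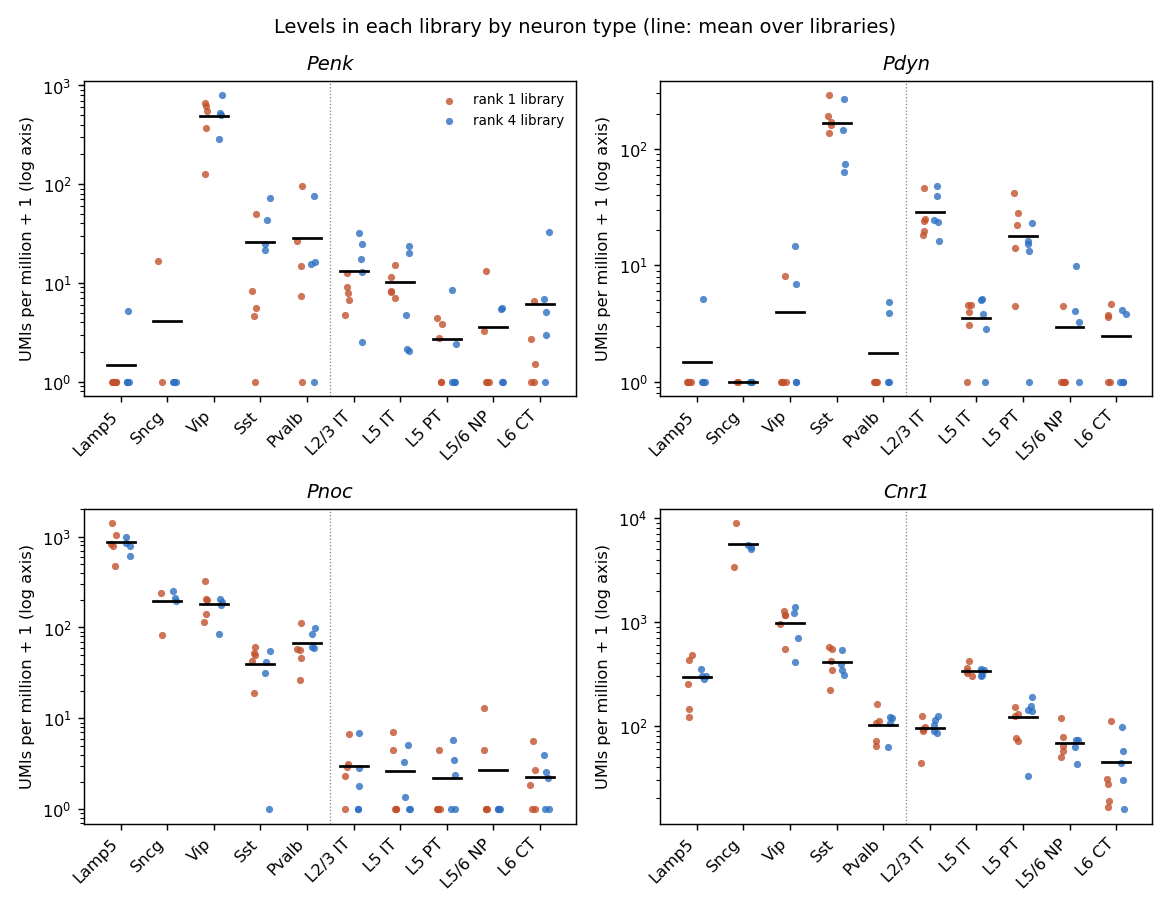
CPM plus 1 (vertical log axis) of Penk, Pdyn, Pnoc and Cnr1 in interneuron types and excitatory subclasses (horizontal axis, divided by a dotted line), 1 point per library coloured by rank, with a line at the mean. The 9 Vip values of Penk (126 to 794 CPM) lie above the highest Pvalb value of 94.1 CPM, and the L5 IT values of Cnr1 lie between 301 and 420 CPM.

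Oprm1, the mu receptor and the main target of morphine, was sparse: inhibitory neurons held 70 UMIs of it and excitatory neurons 108. Inhibitory neurons had 6.97 ± 6.23 CPM (n = 10, 3 libraries at 0, highest 17.1) and excitatory neurons 1.28 ± 1.19 (3 libraries at 0, highest 2.97), so the libraries overlapped. The log2 fold change was 2.21 (SE 0.28, edgeR adjusted p = 3.32e-10). Inhibitory neurons against the mean of the other classes, 5 of which held no UMI, passed with edgeR (adjusted p = 1.52e-19) but not with DESeq2 (log2 fold change 2.91, adjusted p = 0.0868). No Oprm1 UMI was seen in microglia or oligodendrocyte precursors. Inhibitory neurons, with their libraries pooled (9.54 CPM, above the mean over libraries), were therefore at least 18.6-fold and 19.4-fold higher. This takes 3 UMIs over the whole class as the limit of a count of 0. Among interneurons Sst cells had 13.5 ± 11.4 CPM, Lamp5 cells 10.1 ± 9.54, Vip cells 8.05 ± 6.44 and Pvalb cells 2.18 ± 3.03, and Sncg cells held no UMI. The differences of Sst from Lamp5 and of Lamp5 from Vip did not pass, but Sst exceeded Pvalb by 2.01 on the log2 scale (SE 0.51, adjusted p = 0.00103). Sst against the mean of the other types passed (log2 fold change 1.79, adjusted p = 0.00372), but Sncg cells, at 0, are part of that mean, so this size depends on how the fit treats a 0. It no longer passed without rank 1 replicate 1 (0.93, adjusted p = 0.0771), rank 1 replicate 5 (0.92, adjusted p = 0.102) or rank 4 replicate 5 (1.00, adjusted p = 0.0843), which each leave Sncg with too few libraries for the fit, nor at clustering resolution 2 (0.92, adjusted p = 0.0623). Among excitatory cells the order was L5/6 NP (5.41 ± 5.72 CPM), L6 CT (2.49 ± 1.95) and L5 IT (0.929 ± 0.958). L5/6 NP exceeded L6 CT by 1.14 (SE 0.43, adjusted p = 0.04) and L6 CT exceeded L5 IT by 1.18 (adjusted p = 0.0154), while L2/3 IT held 4 UMIs and L5 PT 3.

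Oprd1, the delta receptor, was highest in Pvalb interneurons, the fast-spiking cells that contact the bodies of pyramidal neurons. Inhibitory neurons had 9.65 ± 9.87 CPM (n = 10, from 0 over 6.68 to 29.4) and excitatory neurons 3.56 ± 2.87 (from 0.835 over 2.01 to 7.45), a log2 fold change of 1.31 (SE 0.25, edgeR adjusted p = 5.05e-06) with overlapping libraries. Pvalb cells had 23.9 ± 21.7 CPM (n = 9, from 0 to 58.8) and Sst cells 9.95 ± 9.10 (from 0 to 28.8), which differed by 1.30 on the log2 scale (SE 0.35, adjusted p = 0.00258). No UMI of Oprd1 was seen in 333 Vip, 275 Lamp5 or 108 Sncg cells. With all libraries pooled, Pvalb cells were therefore at least 8.83-fold higher than Vip, 11.5-fold higher than Lamp5 and 4.71-fold higher than Sncg cells. The pooled Pvalb level was 32.3 CPM, above the mean over libraries, and Oprd1 was higher in the version 4.0.0 libraries, as described below. In excitatory neurons Oprd1 was carried by L6 CT (7.80 ± 9.06 CPM) and L5 IT cells (5.66 ± 4.19), whose difference did not pass (adjusted p = 0.544). The L6 CT mean is raised by a single UMI in rank 4 replicate 2, worth 31.9 CPM there. L5 IT exceeded L2/3 IT (2.01 ± 2.53) by 1.26 (adjusted p = 0.000714), and L5/6 NP cells held 1 UMI.

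The levels of Oprm1 and Oprd1 went with the software version of the matrices. This comparison was added after the data had been seen. Oprd1 in all kept cells ran from 5.36 to 7.82 CPM in the 4 libraries of version 4.0.0 and from 0.272 to 1.45 in the 6 of version 3.1.0, a log2 fold change of 2.80 (SE 0.30, edgeR adjusted p = 1.08e-05). Oprm1 ran from 2.35 to 2.95 CPM against 0 to 1.16 (log2 fold change 2.39, SE 0.54, adjusted p = 0.00217). Neither gene overlapped between versions in all kept cells. Oprd1 also passed within inhibitory neurons (2.33, adjusted p = 0.000486) and excitatory neurons (2.28, adjusted p = 8.52e-05). Oprm1 passed within excitatory neurons with overlapping libraries (1.87, adjusted p = 0.0222) and, with no overlap of libraries (from 8.86 CPM in version 4.0.0, up to 8.82 in 3.1.0), did not pass within inhibitory neurons (1.15, adjusted p = 0.096). Oprk1 (0.89, adjusted p = 0.0108) and Pdyn (0.78, adjusted p = 0.0226) passed in all kept cells with overlapping libraries, and the other 4 genes did not. Oprk1 did not pass within excitatory neurons (0.22, adjusted p = 0.568), nor Pdyn within inhibitory neurons (0.41, adjusted p = 0.39) or excitatory neurons (0.04, adjusted p = 0.923). In inhibitory neurons Penk was lower in version 4.0.0 (log2 fold change -1.07, adjusted p = 0.026). A difference between versions was common, with 60.9% of all genes called in all kept cells, 33.2% in inhibitory neurons and 49% in excitatory neurons. The version goes with the replicate number and so with any other difference between these sets of libraries, and these cannot be told apart. The comparisons of types had each library as a term, and those of rank had the version as a term.

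Oprk1, the kappa receptor, was mainly a gene of excitatory neurons, which held 91.8% of its UMIs. It ran from 9.26 over 22.0 to 34.9 CPM there (21.5 ± 8.19, n = 10), against 4.06 ± 2.25 in inhibitory neurons (from 0 to 8.30), with no overlap and a log2 fold change of 2.78 (SE 0.26, edgeR adjusted p = 2.08e-17). Fibroblasts reached 15.5 CPM from 3 UMIs and their difference from excitatory neurons did not pass (adjusted p = 0.107). Of the excitatory subclasses that could be named, L5 IT had 14.3 ± 5.60 CPM and L2/3 IT 5.20 ± 4.18, a log2 difference of 1.06 (SE 0.24, adjusted p = 0.000169). L5/6 NP, L5 PT and L6 CT cells had 1.26, 1.00 and 0.882 CPM. L5 IT cells held 156 and L2/3 IT cells 56 of the 1369 Oprk1 UMIs of excitatory neurons, and 2 excitatory clusters that the markers left unnamed held more. Clustering at resolution 0.5 joined cells differently and raised the L5 IT mean to 44.9 CPM. A cluster of 951 cells with Npy, Oprk1, Penk and Tesc among its leading genes had 110 ± 28.9 CPM (n = 7), and a cluster of 776 cells led by Oprk1 and Rxfp1 had 116 ± 63.9 (n = 10, from 12 to 215). The first held 25.5% of the Oprk1 UMIs in 1.50% of the cells and the second 20.7% in 1.40%. L6 IT was the best match of both, with marker scores of 0.398 and 0.687, below the minimum of 1 for a name. Penk was also high in both, at 64.6 ± 59.1 and 31.1 ± 13.3 CPM, above each named subclass mean. An unnamed cluster led by immediate early genes such as Fos and Npas4 (543 cells) had 40.3 ± 46.9 CPM of Oprk1 and 33.7 ± 23.1 of Penk. Of the 507 excitatory cells with a Penk UMI, 128 (25.3%) also had an Oprk1 UMI, against 5.02% of the other excitatory cells. Within the 2 clusters where both genes were high the shares were closer, at 42.7% against 29.7% in the cluster of 951 cells and 41.7% against 29.9% in that of 776, which held 61 and 25 of the 128 cells. Deeper cells are more likely to show both, so these shares are a description. Oprk1 had too few UMIs for a test among interneuron types, at 13 in Sst cells, 7 in Vip cells and none in Lamp5 cells.

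**Figure D3:**
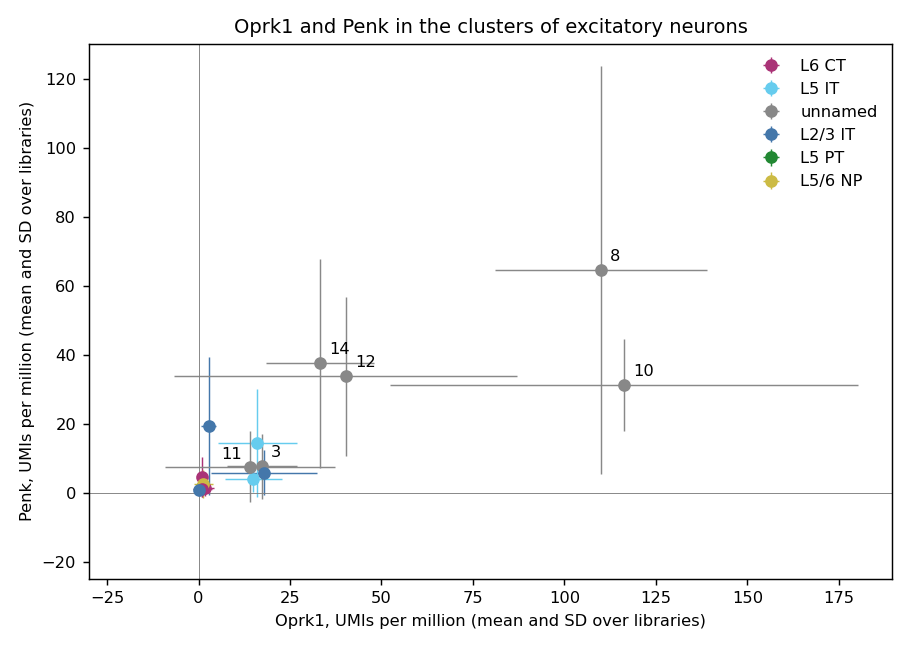
CPM of Oprk1 (horizontal axis) and Penk (vertical axis) in each cluster of excitatory neurons, coloured by subclass with unnamed clusters in grey and numbered, as mean with SD over libraries (bars). The unnamed clusters 8 and 10 stand apart at 110 and 116 CPM of Oprk1, with 64.6 and 31.1 CPM of Penk.

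Oprl1, the nociceptin receptor, was the only one of the 8 genes with its highest class mean outside neurons. Oligodendrocyte precursors, the dividing cells that give rise to myelinating oligodendrocytes, ran from 36.5 over 77.3 to 116 CPM (78.7 ± 23.9, n = 10). Inhibitory neurons had 40.3 ± 10.5 CPM (from 29.0 to 63.1) and excitatory neurons 40.0 ± 6.39 (from 29.1 to 48.8), whose difference did not pass (edgeR adjusted p = 0.601). Precursors exceeded inhibitory neurons by 0.78 on the log2 scale (SE 0.18, adjusted p = 0.000183) and excitatory neurons by 0.64 (SE 0.16, adjusted p = 0.00022), with some libraries overlapping. The summed markers of excitatory neurons in these precursors were 121 to 750 CPM, and their part in the Oprl1 level was not tested. Committed oligodendrocyte precursors held 3 Oprl1 UMIs (7.01 CPM) and mature oligodendrocytes 29 UMIs (4.77 CPM). Thinned to 1000 UMIs, 7.43% ± 2.02 of the precursors had an Oprl1 UMI (13.9% unthinned, median 1628 UMIs), against 0.431% of astrocytes (0.951% unthinned). Among interneurons Sst cells had 61.4 ± 21 CPM, above Vip cells (36.0 ± 25.7) by 1.03 on the log2 scale (SE 0.33, adjusted p = 0.0179), and Lamp5 cells had 14.1 ± 10.5. Excitatory subclasses were close together, from 36.5 ± 10.8 CPM in L2/3 IT to 57.1 ± 16.8 in L5 PT. No neighbours in that order passed, but its ends did (log2 fold change of L2/3 IT over L5 PT -0.62, SE 0.14, adjusted p = 7.4e-05).

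Cnr1, the CB1 receptor, was steepest among interneurons. Inhibitory neurons had 646 ± 187 CPM (n = 10, from 368 to 874) and excitatory neurons 169 ± 36.0 (from 119 to 223), with no overlap and a log2 fold change of 1.72 (SE 0.18, edgeR adjusted p = 1.19e-14). Sncg cells, the type that takes in the cholecystokinin basket cells, ran from 3410 over 5270 to 8982 CPM (5654 ± 2036, n = 5). Vip cells had 984 ± 346 CPM, Sst cells 411 ± 121, Lamp5 cells 297 ± 119 and Pvalb cells 102 ± 32.4. Each neighbouring pair in this order differed, and Sncg exceeded Vip by 2.32 (SE 0.14, adjusted p = 1.12e-61) and Pvalb by 5.67 (SE 0.16, adjusted p = 4.18e-252) on the log2 scale. Thinned to 1000 UMIs, 80.8% ± 8.08 of Sncg cells had a Cnr1 UMI (97.3% unthinned, median 2906 UMIs), against 3.07% of astrocytes (6.45% unthinned). Among excitatory cells L5 IT stood apart, with every library between 301 and 420 CPM (338 ± 35.8), and L5 PT had 120 ± 46.9 (from 32.1 to 189), L2/3 IT 95.4 ± 23.2, L5/6 NP 67.9 ± 22.0 and L6 CT 43.9 ± 33.8. L5 IT exceeded L5 PT by 1.44 (SE 0.13, adjusted p = 1.96e-13) and L6 CT by 3.40 (SE 0.14, adjusted p = 1.38e-25). All classes other than neurons lay between 23.9 and 41.3 CPM, and the difference of oligodendrocyte precursors from astrocytes did not pass (adjusted p = 0.975).

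Other genes of these pathways were described from 3 lists, with counts against the mean of the other types and the same test. Of 10 genes for peptide processing and breakdown, 8 were higher and none lower in inhibitory neurons (median log2 fold change 2.17, against 0.34 over all genes), where 42.3% of all genes were called higher. In excitatory neurons 7 were higher and 1 lower (median 1.29, against 0.46), where 53.3% of all genes were called higher. They include Pcsk1 and Pcsk2, the convertases that cut the precursors, and Pam, which amidates peptide ends. Excitatory neurons had log2 fold changes of 3.09 for Pcsk1 and 3.24 for Pcsk2, and inhibitory neurons 2.36 for Pam. Among interneurons, 2 of 9 genes tested were higher and 1 lower in Vip cells, where 6.24% of all genes were called higher, and the counts were the same in Sncg cells, where 2.29% were. They were 3 higher and 1 lower in Sst cells (12.3% of all genes called higher), 3 and 2 in Lamp5 cells (9.14%) and 1 and 3 in Pvalb cells (11.9%). The share of all genes called lower is not given for each of these types. Over all interneuron types, 12.9% of the comparisons of all genes passed in either direction. Vip cells had Pcsk1 at 2.65 (SE 0.27, edgeR adjusted p = 2.91e-20) and Pcsk2 at 1.13. Sncg cells, with 1 UMI of Penk, had Pcsk2 at 1.42 (SE 0.16, adjusted p = 6.94e-16), and Pcsk2 was lower in Sst cells, where Pdyn was highest, at -0.80 (adjusted p = 1.6e-08) and in Pvalb cells at -1.21 (adjusted p = 4.79e-15). Pvalb cells had Mme, which encodes the enkephalin-degrading enzyme neprilysin, at 4.09 (SE 0.37, adjusted p = 1.56e-26). In L5 PT cells 7 of the 10 were lower and none higher, where 15.4% of all genes were called lower, among them Pam (-1.08).

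Of 12 genes for the making, breakdown and binding of endocannabinoids 9 could be tested. In excitatory neurons 7 were higher and 1 lower (median 0.84, against 0.46 over all genes), where 53.3% of all genes were called higher, with Dagla, which makes the endocannabinoid 2-AG, at 1.83 (SE 0.14, adjusted p = 8.24e-24) and Faah, which breaks down anandamide, at 2.61. In inhibitory neurons 6 were higher and none lower (median 0.61, against 0.34), where 42.3% of all genes were called higher. Astrocytes had Mgll, which breaks down 2-AG, at 3.43 and Naaa at 3.94, and microglia had Daglb at 3.54 and Abhd12 at 2.21. Among excitatory subclasses 8 of 9 were lower in L5/6 NP cells and none higher (median -0.91, against -0.07 over all genes), where 15.6% of all genes were called lower. In L2/3 IT cells 6 were higher and 1 lower (median 0.41, against 0.09), where 24.2% of all genes were called higher, and L5 IT cells had the same counts (median 0.26, against 0.03), where 18.4% were called higher. Of 16 genes of inhibitory G protein signalling, 14 were higher and 2 lower in excitatory neurons (median 1.37, against 0.46) and 12 were higher and 2 lower in inhibitory neurons (median 1.13, against 0.34), beside the same 53.3% and 42.3% over all genes. Kcnj6 and Kcnj9, subunits of the potassium channels that these receptors open, had log2 fold changes of 3.84 and 3.17 in excitatory neurons, and Kcnj3 and Kcnj9 of 2.30 and 2.16 in inhibitory neurons.

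Over 20 classes, types and subclasses (all excitatory and all inhibitory neurons as wholes left out), the genes whose log CPM followed each of the 8 most closely were listed from 12205 genes, as a description. The points share their libraries, and Pearson's r is given without a p. Crh, the stress peptide precursor, followed Penk (r = 0.84), then Pthlh and Klhl40. Sema3a followed Pdyn (r = 0.71), then Gtpbp3 and Cd55. Dlx1as and Gad2, a gene for the enzyme that makes GABA, followed Pnoc (r = 0.97 and 0.95), then Dlx6os1. Ccdc186 followed Oprm1 (r = 0.87), then Cidea and Klhl33, and Gpr83 followed Oprd1 (r = 0.76), then Fhod3 and Nxph2. Lrrc75b followed Oprk1 (r = 0.69), then Ubxn11 and Slc22a15, and Prr36 followed Oprl1 (r = 0.94), then Gm45159 and Emb. Npffr1 followed Cnr1 (r = 0.92), then Nrxn3 and Plppr3.

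The study's own comparison was between dominant and subordinate mice, and none of the 8 genes passed it in any class, type or subclass. In all kept cells, Penk had 14.4 CPM as the median of the rank 1 libraries (from 11.6 to 16.8) and 12.8 in rank 4 (from 11.6 to 21.8). Pdyn had 8.71 CPM in rank 1 (from 6.81 to 17.9) and 6.86 in rank 4 (from 4.48 to 14.8), and Pnoc 16.6 (from 11.6 to 21.6) and 16.4 (from 7.29 to 17.8). Cnr1 had 141 CPM in rank 1 (from 116 to 221) and 136 in rank 4 (from 82.4 to 152). Of the opioid receptors, Oprm1 had 1.16 CPM in rank 1 (from 0 to 2.82) and 0.599 in rank 4 (from 0 to 2.95), and Oprd1 1.45 (from 0.746 to 7.82) and 1.26 (from 0.272 to 5.85). Oprk1 had 13.7 CPM in rank 1 (from 5.60 to 15.8) and 10.9 in rank 4 (from 5.28 to 19.3), and Oprl1 34.1 (from 25.9 to 38.9) and 23.4 (from 23.1 to 34.5). All these ranges overlap between ranks. For Penk the medians run opposite to the means (14.5 and 15.4 CPM) and to the fitted log2 fold change of -0.11, and the means of Oprk1 (11.4 and 11.8 CPM) also run opposite to its medians. Oprl1 was higher in rank 1 in 5 of 5 replicate pairs, with a log2 fold change of 0.25 (SE 0.15, edgeR adjusted p = 1.00). Sums over all kept cells mix changes per cell with changes in the number of cells of a type, and these cannot be told apart there.

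**Figure D4:**
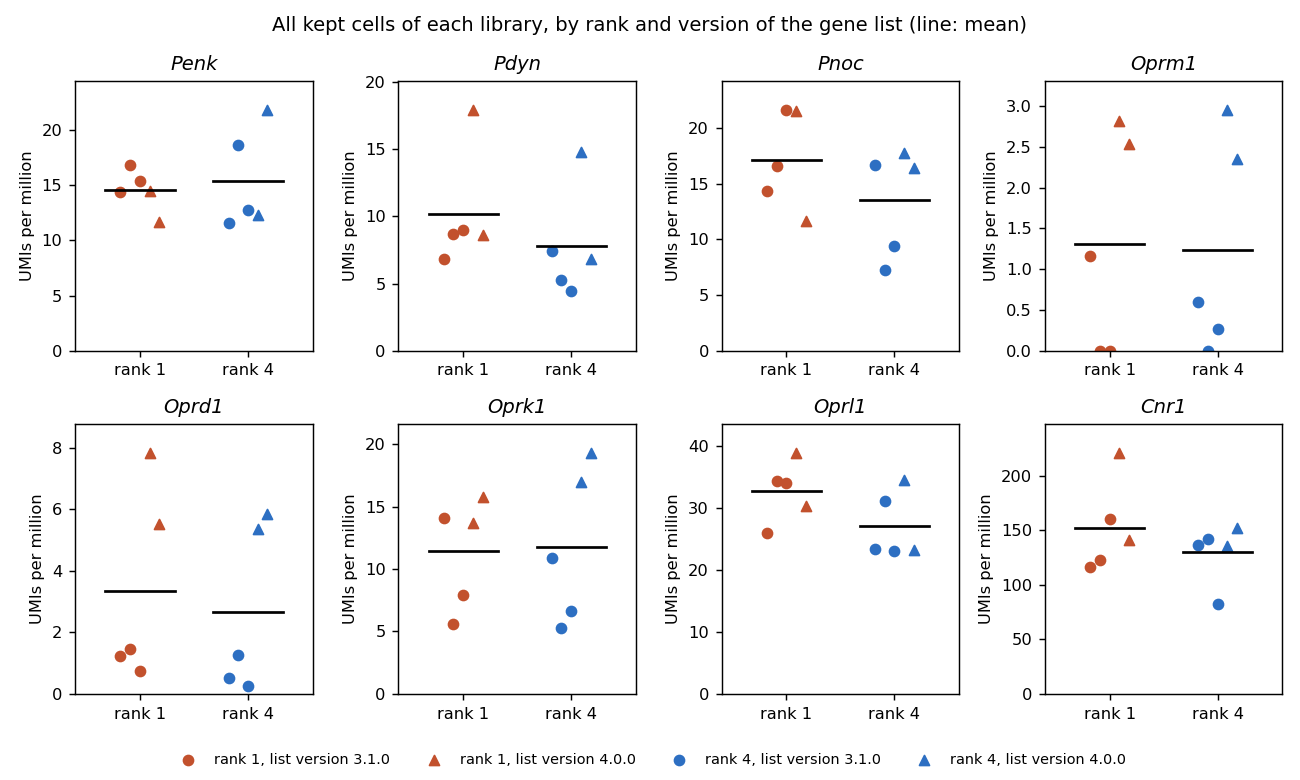
CPM of the 8 genes in all kept cells (vertical axis, 1 panel per gene) for 5 rank 1 and 5 rank 4 libraries, with circles for version 3.1.0, triangles for version 4.0.0 and a line at the mean of each rank. The ranks overlap in every panel, and the 4 version 4.0.0 libraries of Oprd1 (5.36 to 7.82 CPM) lie above the 6 of version 3.1.0.

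With edgeR's quasi-likelihood test and version as a covariate, 0 of 65 tests of the 8 genes across 20 fits passed an adjusted p of 0.05, where 0% of 174720 tests over all genes passed. DESeq2 also called none. An unadjusted p under 0.05 was reached in 6 of the 65 tests and in 2.93% of the tests over all genes. The 65 tests are not independent, since subclasses are contained in classes and all share the same libraries. The log2 fold change of rank 1 over rank 4 was positive in 38 tests and negative in 27, with a median of 0.10. Treating the replicate number as a block, in place of version, called 720 of 173605 tests over all genes (0.415%) and none of the 8 genes. The groups overlapped in every test.

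**Figure D5:**
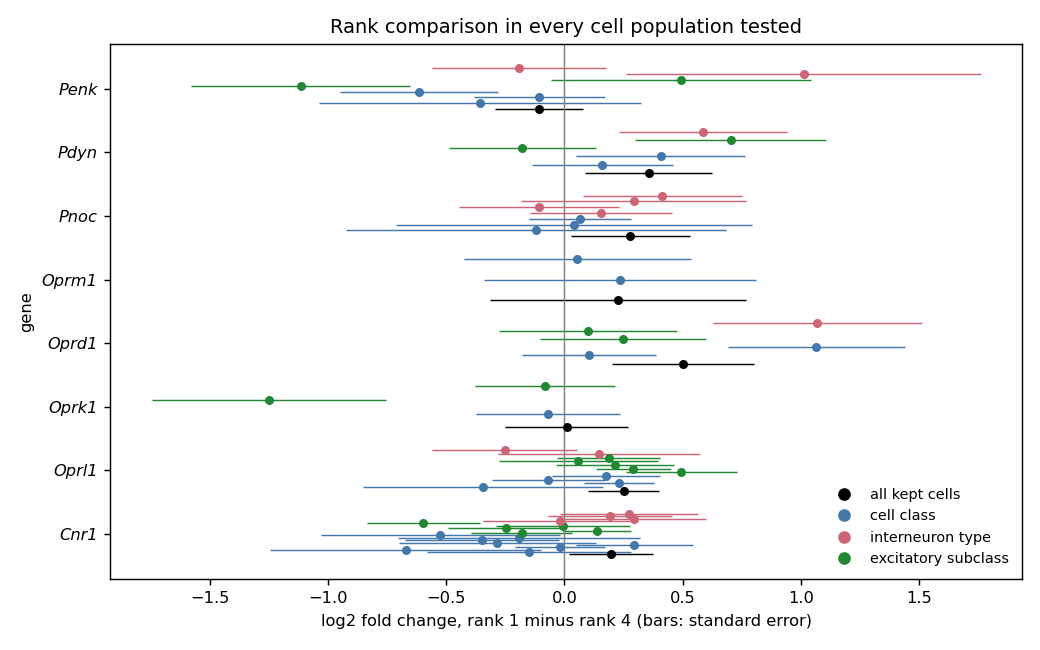
Log2 fold change of rank 1 over rank 4 (horizontal axis, bars show the SE) for each gene (vertical axis) in all kept cells and in each class, type and subclass where it could be tested, coloured by level. Effects run from -1.25 (Oprk1 in L2/3 IT) to 1.07 (Oprd1 in Pvalb), and none passed the adjusted threshold.

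In the class where each gene was highest, the libraries of the ranks overlapped as well, and Oprd1, whose effect there was the largest, is described with the smallest p-values below. In inhibitory neurons the log2 fold change of rank 1 over rank 4 was -0.61 for Penk (SE 0.33; medians 84.6 and 95.9 CPM), 0.41 for Pdyn (SE 0.36; 50.4 and 52.5 CPM), 0.07 for Pnoc (SE 0.22; 237 and 203 CPM), 0.05 for Oprm1 (SE 0.48; 8.82 and 6.48 CPM) and 0.30 for Cnr1 (SE 0.25; 727 and 564 CPM). The rank 4 mean of Penk rests on replicate 2, at 365 CPM, while the other 4 libraries had 68.6 to 165. Oprk1 in excitatory neurons differed by -0.07 (SE 0.30; 19.4 and 23.5 CPM) and Oprl1 in oligodendrocyte precursors by 0.17 (SE 0.23; 80.6 and 77.1 CPM). The adjusted p was 1.00 for each of these 7. For Pdyn the medians run opposite to the fitted change. Leaving out rank 4 replicate 4 gave 0.81, and leaving out rank 4 replicate 5 gave 0.09. As each library was left out, Penk ran from -0.88 to -0.31, Cnr1 from 0.19 to 0.58 and Oprl1 from 0.01 to 0.31. Summed markers of excitatory neurons in inhibitory neurons were 25.1 to 291 CPM in rank 1 and 33.2 to 509 in rank 4, and their part in the inhibitory neuron values was not tested.

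The smallest p-values belonged to receptors and to Penk. Oprd1 in inhibitory neurons had 13.5 ± 11.2 CPM in rank 1 (n = 5, from 3.59 to 29.4) and 5.79 ± 7.48 in rank 4 (from 0 to 15.7), a log2 fold change of 1.06 (SE 0.37, edgeR unadjusted p = 0.00954, adjusted p = 1.00), and was higher in rank 1 in 5 of 5 replicate pairs. Its adjusted p lay between 0.349 and 1.00 over the alternative settings. Within version 4.0.0 the change was 0.89, and version 3.1.0 alone held too few UMIs for a fit. In Pvalb cells alone Oprd1 had 12.6, 15, 14, 58.8 and 54.1 CPM in rank 1 replicates 1 to 5 and 0, 0, 37.9 and 22.8 in rank 4 replicates 1, 3, 4 and 5 (log2 fold change 1.07, SE 0.44, unadjusted p = 0.0206, adjusted p = 1.00). High values in both ranks are those of replicates 4 and 5, the version 4.0.0 libraries. Cnr1 in L6 CT cells had a log2 fold change of -0.60 (SE 0.24, unadjusted p = 0.0151, adjusted p = 1.00), with 39.9 ± 39.6 CPM in rank 1 and 47.9 ± 31.0 in rank 4. The highest of these values, 110 CPM in rank 1 replicate 2, came from 3 UMIs. The replicate block gave it an adjusted p of 0.113.

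Oprk1 in L2/3 IT cells had 5.75, 1.34, 1.89, 2.30 and 4.23 CPM in rank 1 replicates 1 to 5 and 5.90, 1.51, 4.13, 12 and 12.9 in rank 4 (log2 fold change -1.25, SE 0.50, unadjusted p = 0.0206, adjusted p = 1.00). It was lower in rank 1 in 5 of 5 pairs, by little in replicates 1 and 2, and clustering at resolution 0.5 gave 0.05. Penk in the same cells had 5.75, 8.02, 3.77, 6.91 and 11.6 CPM in rank 1 and 16.5, 1.51, 31, 12 and 24.1 in rank 4 (log2 fold change -1.11, SE 0.46, unadjusted p = 0.0265, adjusted p = 1.00), lower in rank 1 in 4 of 5 pairs, and resolution 0.5 gave -0.21. Oprl1 in L2/3 IT cells, named after its values were seen, went the other way, with 42.3 ± 4.44 CPM in rank 1 and 30.8 ± 12.7 in rank 4 (0.49, SE 0.23, unadjusted p = 0.0478, adjusted p = 1.00). None of 550 tests of the 3 pathway lists passed between ranks, and 13 of them had an unadjusted p under 0.05.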

How the data were processed

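Per the file headers, the deposited matrices hold raw UMI counts per gene and cell barcode, written by software version 3.1.0 (replicates 1 to 3) or 4.0.0 (replicates 4 and 5). The submitters' processing notes name Cell Ranger 4.0.0 and the mm10 build, and the annotation and cell-calling settings are not given in the sources used here. The 30406 gene identifiers found in both gene lists (31053 and 32285 genes) were used.

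Cells with at least 500 genes and at most 15% mitochondrial UMIs were kept. Scrublet in scanpy 1.11.5 called 3915 doublets, which were removed. In 1 library its threshold failed and the median of the others, 0.238, was used. Leiden clustering (igraph 0.11.9, 2000 variable genes, 30 components, 15 neighbours, resolution 1) and naming from marker lists left out the 8 genes and the pathway genes. Nr4a2, a listed L6 IT marker that is also an early response gene, was left out of naming after the cluster names had been seen. A name needed a marker score of at least 1 and a lead of 0.5, and stands for cells resembling that type, which the authors may have divided differently.

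Counts were summed per library and type and tested with edgeR 4.0.16 in R 4.3.3 (TMM, quasi-likelihood, two-sided, genes with at least 50 UMIs in the fit, adjusted p threshold 0.05). Type comparisons had the library as a term and rank comparisons the software version. Same-numbered libraries of the 2 ranks deviated together, with correlations of deviations from the rank means of 0.738 to 0.886. For deviations within version they were 0.204 to 0.722, and all were over 0.1. The numbers were therefore taken as pairs and a replicate block was fitted as an alternative. Replicates 4 and 5 are the only libraries of their version in each rank, so their within-version deviations mirror each other. Their correlations of 0.204 are thus the same value and not separate support for pairing. With within-version deviations, the rank 1 libraries of replicates 3, 4 and 5 correlated more with a rank 4 library of another number (0.382, 0.236 and 0.261). Their own numbers gave 0.231, 0.204 and 0.204. For replicates 4 and 5 the better match was of the other version, since mirrored deviations make the alternative within their own version negative. With deviations from the rank means, replicate 3 also correlated more with another number (0.766 against 0.750). Other alternatives were DESeq2 1.42.0, RLE scaling, other filters and clustering resolutions, and leaving out each library. Shares of cells were taken after thinning each cell to 1000 UMIs, leaving out shallower cells. A count of 0 allows up to 3 UMIs, which covers counting error only.

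On simulated counts the rank test in excitatory neurons (13721 genes) recovered 85% of 2-fold and 98% of 4-fold changes, with 10 false calls, and the Sst test (10071 genes) 99% and 100%, with 15 false calls. Changed genes were drawn only from genes with more UMIs than Pdyn (471), Oprd1 (280), Oprm1 (108) or Pnoc (91) had in excitatory neurons. Recovery at such low counts was not tested. The simulated counts also held no version effect and, in the Sst test, no differences among the other types.

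The rank comparison names each gene in all kept cells and in its highest class, and the 5 pairs of a gene and a type with the smallest p. The pathway lists name genes among the 2 smallest p of a fit, and 3 genes most alike each of the 8 are named by Pearson correlation. The 8 genes and the lists were chosen with earlier results of these data known. GENCODE M21 held 99.7% of the gene identifiers.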

Additional observations from a re-analysis of the deposited data

Results flagged for a closer look

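Within a rank, 66 groups of 4 or 5 libraries were screened for a library far from the others, and 8 held one, where chance gives about 1 in 20, or 3.3. The groups share libraries and some are contained in others. They are not independent, so 8 cannot be read as an excess over 3.3. Pdyn, the dynorphin precursor, stood apart in replicate 4 of both ranks. In all kept cells it reached 17.9 CPM in rank 1 replicate 4 (others 6.81 to 8.95) and 14.8 CPM in rank 4 replicate 4 (others 4.48 to 7.39). Rank 1 replicate 4 was also high in inhibitory neurons, at 103 CPM (others 45.8 to 57.4), and in L2/3 IT cells, at 44.9 CPM (others 17.2 to 24.0).

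Cnr1 in all kept cells was low in rank 4 replicate 3, at 82.4 CPM (others 136 to 152). Oprk1 in L5 IT cells was high in the same library, at 25.6 CPM (others 11.4 to 14.4) from 9 UMIs. Cnr1 in L6 CT cells reached 110 CPM in rank 1 replicate 2 (others 15.5 to 29.8), from 3 UMIs. Oprd1 in L6 CT cells reached 31.9 CPM in rank 4 replicate 2 (others 4.37 to 7.99), from 1 UMI.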

How the results depend on the processing

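The count of the 8 genes that passed between excitatory subclasses fell from 21 to 11 with stricter filtering (filterByExpr), with fewer genes tested, and the counts at each level stayed within 1.5 times under the other alternatives run. No rank test of the 8 genes passed under any alternative, the lowest adjusted p being 0.113. The replicate block called 720 of 173605 tests over all genes, against 0 with version as covariate, and changed no call of the 8 genes. Some rank effects changed direction, among them the most negative of the 65, Oprk1 in L2/3 IT cells. Oprk1 in all kept cells (0.0086 on the log2 scale) gave -0.0057 with RLE scaling, -0.0019 with DESeq2, -0.136 with at least 1000 genes per cell, -0.0025 with doublets kept, -0.0313 with the replicate block, -0.0582 without a covariate, -0.290 within version 4.0.0 and -0.307 to 0.149 as each library was left out. Oprk1 in excitatory neurons (-0.0706) gave 0.0135 at clustering resolution 2, 0.134 within version 3.1.0 and -0.417 to 0.0787 as each library was left out, and in L2/3 IT cells (-1.25) it gave 0.0505 at resolution 0.5. Oprm1 in inhibitory neurons (0.0547) gave -0.0015 with at least 1000 genes per cell, -0.0402 without a covariate and -0.275 to 0.359 as each library was left out, and Oprm1 in all kept cells (0.227) gave -0.307 to 0.384. Penk in all kept cells (-0.108) gave 0.0831 within version 3.1.0 and -0.202 to 0.0857 as each library was left out. Pnoc gave -0.0648 in all kept cells within version 4.0.0 and -0.0605 to 0.223 in inhibitory neurons as each library was left out. Pnoc in L2/3 IT cells against the other subclasses gave -0.421 with a 30% mitochondrial limit and -0.345 with doublets kept. The causes were not tested. Of 48 alternative shares of cells with a UMI, 37 moved by over 1 SD, since thinning sets how many cells can show a UMI. Depth limits Oprm1, Oprd1 and interneuron Oprk1, and within-version fits could not be made where under 50 UMIs remained.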
